A study of Mus musculus with 8 samples.

Results

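The genes described here are 39 members of homologous recombination and Fanconi repair, chosen by name. Each was read through the probe set that the platform annotation assigns to its symbol and that has the highest mean over the 8 arrays. Of the 39 members, 37 were named by a probe set in the platform annotation used, out of 18193 genes named on the array, and 36 passed the filter on dim signals (log2 above 5 on at least 2 arrays), out of 12177 genes tested. Rbbp8 and Xrcc2 were not analysed here. Rad51b, which forms a mediator complex with RAD51C, RAD51D and XRCC2, stayed under the filter in both of its probe sets. The brighter of them lay between 4.15 and 4.60 (log2) and changed by -0.06 over both lines, and the dimmer read 4.12 and 4.58 in LLC high against 3.27 and 3.48 in LLC low cells, and 4.73 and 4.77 in colon26 high against 3.81 and 3.94 in colon26 low cells; neither was tested. Bard1 and Rad54b passed it through high arrays, 2 and 3 of them, with no low array above 5, so these members could enter the test only by being higher in high cells.

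The cells came from 2 mouse tumour lines, LLC (from a Lewis lung carcinoma) and colon26 (from a colon carcinoma), each made to carry enhanced green fluorescent protein (EGFP) stably under the mouse PSF1 promoter; PSF1 is the GINS subunit encoded by Gins1, which acts at replication forks. Tumours of LLC were taken 4 weeks and those of colon26 2 weeks after injection under the skin of mice, and their dissociated cells were sorted for high or low EGFP. LLC high, LLC low, colon26 high and colon26 low cells were each measured on 2 Affymetrix arrays, labelled as biological replicates 1 and 2. The labels do not state the strain, sex or age of the host, any pooling of tumours, or whether a line is 1 clone, and the GEO descriptions of the colon26 arrays name LLC where title, source and cell line name colon26. The study asked whether cells with high PSF1 share a signature with embryonic stem cells. Here the repair genes were compared between cells sorted for high and for low EGFP, in each line and between the lines.

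Homologous recombination repairs a broken chromosome from its sister copy: the ends are resected to single strands, BRCA2 and its partners prepare them for strand invasion, and they invade the intact duplex. The Fanconi pathway acts where the strands are crosslinked: a core complex attaches ubiquitin to FANCD2 and FANCI at the stalled fork, and the incised lesion is passed on to recombination. Both pathways work chiefly in S and G2 phase, under the ATR and ATM checkpoint kinases, and are known as guards of dividing tissue and of tumour cells under replication stress.

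Gins1 itself read 8.42 and 8.51 in LLC high cells against 7.23 and 7.14 in LLC low cells, and 8.29 and 8.38 in colon26 high cells against 7.56 and 6.97 in colon26 low cells, so that the high arrays lay above the low arrays in both lines. Arrays numbered 1 and 2 differed in their control probes in every group: those at the 3′ end exceeded those at the 5′ end by 2.55 ± 0.13 (log2, SD, n = 4 arrays) on arrays numbered 1 and by 0.18 ± 0.15 (n = 4) on arrays numbered 2. High and low arrays were therefore compared within their number. Many genes used as markers of host cells were lower in high cells. In LLC 10 of 13 macrophage markers, 8 of 10 fibroblast markers and 2 of 2 neutrophil markers fell, and in colon26 12 of 13, 4 of 10 and 2 of 2. The summed macrophage signal was 9.71 to 9.88 (log2) in LLC high against 11.28 to 11.43 in LLC low cells, and 10.52 to 11.15 in colon26 high against 12.79 to 13.46 in colon26 low cells. That of the fibroblast markers was 13.32 to 13.40 in LLC high against 14.95 to 15.55 in LLC low cells, and 15.03 to 15.09 in colon26 high against 15.28 to 15.57 in colon26 low cells. Among these, Col3a1 lay between 12.48 and 13.87 and Pdgfra between 11.15 and 12.70 over all arrays, high cells included. Which cells this signal came from, host or tumour, was not tested. Of 5 endothelial markers tested, none fell in LLC and 3 in colon26. The T cell markers tested (Cd3e, Cd3d and Cd8a) and the B cell marker Cd79a were called in neither line, and no NK cell marker was tested. Tek, Vwf, Cd2, Nkg7, Gzma, Cd79b, Ms4a1, Csf3r, Hba-a1 and Alas2 stayed at or below 5 on all arrays. As for the tumour cells themselves, the keratin Krt8 lay between 12.36 and 12.80 in LLC and between 5.31 and 5.95 in colon26, and its partner Krt18 between 8.43 and 9.14 in LLC and between 3.84 and 5.05 in colon26. Of 2 epithelial adhesion genes, Epcam lay between 5.99 and 7.18 over all arrays and Cdh1 below 5 on all. The intestinal factor Cdx2 lay between 5.08 and 5.62, while the intestinal gene Vil1 and the lung genes Sftpc and Nkx2-1 were below 5 on all arrays; these 8 genes were chosen with the data in view. Fewer cells of a type and less RNA per cell cannot be told apart in such bulk samples, and the part of this composition in the differences below was not tested.

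Most of the repair genes were higher in cells sorted for high EGFP than in those sorted for low EGFP. Over both lines, 24 of the 36 members tested rose and none fell, where 7.47% of all genes tested rose and 5.57% fell. In LLC 17 members rose and none fell (4.98% of all genes rose and 6.04% fell), and in colon26 14 rose and none fell (2.18% and 1.58%). The colon26 count was 4 with quantile normalization, 6 with a block shared by the lines and 8 with a gene's probe sets averaged. No member was lower even at an unadjusted p under 0.05 in these fits. Without Bard1 and Rad54b, 22 of 34 members rose over both lines, 16 in LLC and 14 in colon26. The 13 members that rose in each line separately were Exo1, Brca1, Brca2, Rad51ap1, Rad54l, Blm, Eme1, Fancb, Fancd2, Chek1, Chek2, Topbp1 and Rad18 (1.78% of all genes rose in both). The median change was 0.69 (log2) in LLC and 0.66 in colon26 over the members, against 0.04 and 0.08 over all genes. Of the members called, 15 of 17 in LLC and 10 of 14 in colon26 were above 2-fold. The LLC count includes Rad54b, whose low arrays lay under the filter, and the share of all genes above 2-fold was not counted. In 30 of the 36 members the high array exceeded the low array in 4 of 4 pairs, as it did in 21.4% of all genes. Both LLC high arrays lay above both LLC low arrays for 23 members (17.4% of all genes), and both colon26 high arrays above both colon26 low arrays for 18 (12% of all genes). The counts of pairs and of separate groups include Bard1 and Rad54b. Here and below, changes are high minus low on the log2 scale with their SE from limma, and a gene rose or fell where the Benjamini-Hochberg adjusted p over all genes tested was under 0.05. With 2 arrays a group, these calls depended on the pairing by number: without it, no member was called in either line or over both.

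**Figure D1:**
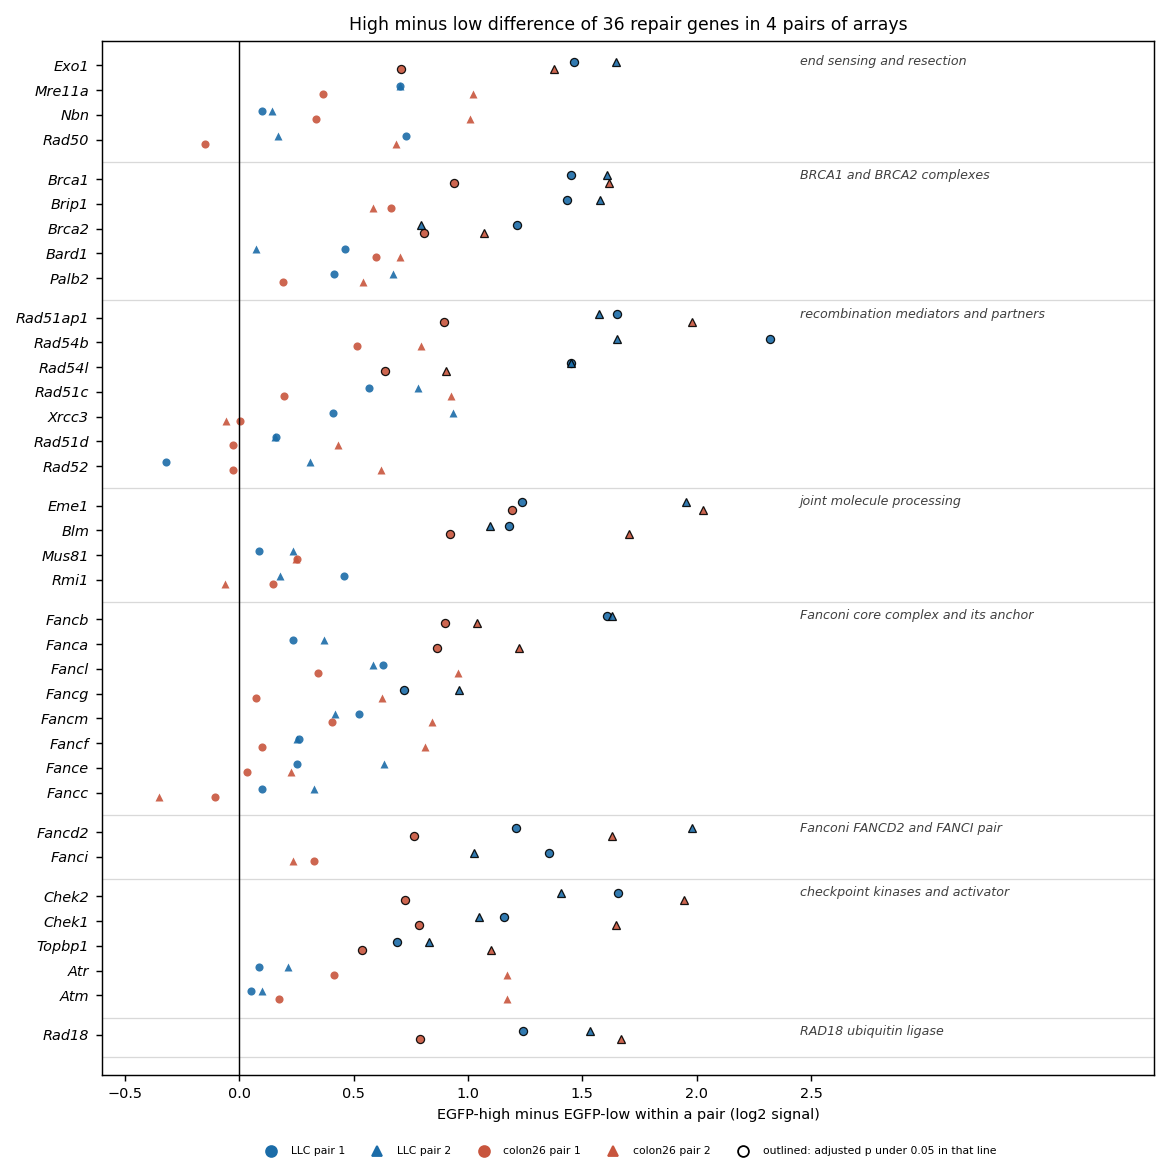
Difference between the high and the low array within each of the 4 pairs (x axis, log2 signal) for the 36 members tested, grouped by role down the page; circles are arrays numbered 1, triangles arrays numbered 2, blue LLC, red colon26, and outlined points belong to a line in which the member was called. In 30 members all 4 points lie right of 0.

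The calls differed in how far they rested on single pairs. Over both lines, 12 of the 24 members stayed called whichever pair was left out: Exo1, Brca1, Brip1, Rad51ap1, Rad54l, Rad54b, Blm, Eme1, Fancb, Chek1, Chek2 and Rad18. Rad54b, here and in LLC, had entered the test only through its high arrays. In LLC 10 of 17 did so, among them Brca1, Rad54b and Fancb. In colon26 none of the 14 did, and none stayed called without colon26 pair 2. The members' median change was 0.94 in colon26 pair 2, against 0.41 in colon26 pair 1. Without colon26 pair 2, 12 members were called over both lines, and 11 were called in LLC without LLC pair 1. In these refits the remaining pair of a line was assumed to vary like those of the other line. How many of all called genes stayed called in them was not counted. The counts therefore cannot be read as particular to the members.

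The sequences upstream of the members with the largest and the smallest changes are shown so that their letters can be compared. Sequences are the 200 bases before the annotated start (RefSeq, GRCm38.p6), read 5′ to 3′ on the gene's strand. Capitals mark an E2F-type motif (TTTGGCGC, TTTCCCGC, TTTGCCGC or TTTCGCGC) or a CCAAT box (CCAAT), each on either strand. E2F factors are known to drive genes of the G1 to S transition, and NF-Y binds the CCAAT box. Eme1, Rad51ap1, Chek2 and Brca1 had the largest changes over both lines of the members called in each, and Fancc and Rad52 the smallest of all tested.
Eme1 promoter, chr11:94653744-94653943, minus strand: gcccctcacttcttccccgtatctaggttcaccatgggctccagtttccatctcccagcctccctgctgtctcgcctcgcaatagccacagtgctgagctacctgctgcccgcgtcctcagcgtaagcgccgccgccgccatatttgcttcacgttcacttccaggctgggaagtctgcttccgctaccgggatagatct
Rad51ap1 promoter, chr6:126939588-126939787, minus strand: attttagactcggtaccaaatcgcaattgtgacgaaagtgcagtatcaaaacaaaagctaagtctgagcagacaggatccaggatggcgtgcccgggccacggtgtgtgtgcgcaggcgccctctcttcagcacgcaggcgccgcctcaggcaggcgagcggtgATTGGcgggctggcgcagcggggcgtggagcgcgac
Chek2 promoter, chr5:110839783-110839982, plus strand: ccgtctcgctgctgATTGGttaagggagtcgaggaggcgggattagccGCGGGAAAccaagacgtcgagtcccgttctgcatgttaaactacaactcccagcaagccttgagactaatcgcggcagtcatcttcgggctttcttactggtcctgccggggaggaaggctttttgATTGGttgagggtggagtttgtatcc
Brca1 promoter, chr11:101551956-101552155, minus strand: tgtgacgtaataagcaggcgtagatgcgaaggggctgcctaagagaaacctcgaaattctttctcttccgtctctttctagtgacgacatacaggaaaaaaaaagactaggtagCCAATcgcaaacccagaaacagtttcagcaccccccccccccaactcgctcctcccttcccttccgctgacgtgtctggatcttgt
Fancc promoter, chr13:63431746-63431945, minus strand: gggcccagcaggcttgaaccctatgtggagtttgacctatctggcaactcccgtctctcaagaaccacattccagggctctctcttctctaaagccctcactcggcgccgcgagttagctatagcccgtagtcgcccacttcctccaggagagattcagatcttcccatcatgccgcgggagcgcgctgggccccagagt
Rad52 promoter, chr6:119902498-119902697, plus strand: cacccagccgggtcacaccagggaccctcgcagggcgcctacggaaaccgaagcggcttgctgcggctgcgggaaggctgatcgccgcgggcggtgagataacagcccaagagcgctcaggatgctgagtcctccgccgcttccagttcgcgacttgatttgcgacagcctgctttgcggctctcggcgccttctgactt

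The stretch of Chek2 held an E2F-type motif and a pair of CCAAT boxes, those of Rad51ap1 and Brca1 held a CCAAT box, and those of Eme1, Fancc and Rad52 held neither. Over windows of 300 bases (250 before the start and 50 after it), 31 members had an entry, and in the 5 with several the first was used. An E2F-type motif lay in 6 of the 31 windows (19.4%), against 4.06% of 9777 other genes tested and 2.32% of the first windows of all 27025 genes in the table. All 6 were among the 21 called members with a window (28.6%), and none was among 9 tested members that were not called. Of these 6, Bard1 had entered the test only through its high arrays, and its call was lost whichever pair was left out. CCAAT was found in 58.1% of member windows, against 38.3% of the other genes tested. The cell cycle homology letters TTTGAA or TTCGAA were in 9.68%, against 13.7%. The motif hits are a description of letters, with no test, and the median GC content was 59.7% in member windows and 60.7% in those of the other genes tested. The 6 E2F-type matches follow with the bases on either side of them, the match in capitals; their display was decided once the hits were known.
Bard1, chr1:71103163-71103192, minus strand: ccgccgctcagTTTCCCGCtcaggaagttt
Brca2, chr5:150522442-150522471, plus strand: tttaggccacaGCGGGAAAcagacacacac
Rad51c, chr11:87404477-87404506, minus strand: gtttccagcgcTTTCGCGCctcttgctcta
Fancg, chr4:43010335-43010364, minus strand: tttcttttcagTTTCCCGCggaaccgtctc
Chek2, chr5:110839820-110839849, plus strand: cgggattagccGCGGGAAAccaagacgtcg
Topbp1, chr9:103305187-103305216, plus strand: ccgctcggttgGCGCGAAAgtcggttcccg

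Of these 6, Brca2, Chek2 and Topbp1 rose in both lines, Fancg in LLC, and Bard1 and Rad51c only in the mean of the lines. The largest change, that of Eme1, came from a gene with no such match in its window.

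Among the end sensing and resection genes, Exo1 and Mre11a rose over both lines, and Rad50 and Nbn did not pass. Exo1, the exonuclease that extends resected ends, read 8.69 and 7.93 in LLC high cells against 7.23 and 6.28 in LLC low cells, and 7.71 and 7.23 in colon26 high cells against 6.999 and 5.86 in colon26 low cells. No high array overlapped a low array of its line. The rise was 1.56 ± 0.21 in LLC and 1.04 ± 0.21 in colon26 (adjusted p = 0.0012 and 0.0185), or 2.94-fold and 2.06-fold. Mre11a, the nuclease of the end-binding complex it forms with RAD50 and NBN, read 9.002 and 8.47 in LLC high cells against 8.30 and 7.77 in LLC low cells, and 8.62 and 8.21 in colon26 high cells against 8.25 and 7.19 in colon26 low cells. Its high arrays lay clear of the low arrays in LLC but not in colon26, where the array numbered 1 of the low cells exceeded the array numbered 2 of the high cells. Over both lines it rose by 0.70 ± 0.14 (adjusted p = 0.00984), having missed the threshold in LLC (adjusted p = 0.0515) and in colon26 (adjusted p = 0.106). Rad50, the ATPase that tethers the ends, read 8.09 and 8.06 in LLC high cells against 7.36 and 7.89 in LLC low cells, and 7.91 and 8.40 in colon26 high cells against 8.06 and 7.71 in colon26 low cells. In colon26 pair 1 it was lower in the high cells, and the change over both lines was 0.36 ± 0.17 (adjusted p = 0.195). Nbn, which brings ATM to the break, read 9.09 and 8.35 in LLC high cells against 8.99 and 8.20 in LLC low cells, and 8.62 and 8.18 in colon26 high cells against 8.28 and 7.17 in colon26 low cells. High and low arrays overlapped in both lines, and the changes of 0.12 ± 0.20 in LLC and 0.67 ± 0.20 in colon26 did not pass (adjusted p = 0.779 and 0.118).

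All 5 genes of the BRCA1 and BRCA2 complexes rose over both lines, Brca1 and Brca2 also in each line. Bard1, counted among the 5, had entered the test only through its high arrays. Brca1, the ubiquitin ligase that favours resection and recombination, read 9.06 and 8.25 in LLC high cells against 7.61 and 6.64 in LLC low cells, and 9.04 and 8.81 in colon26 high cells against 8.10 and 7.19 in colon26 low cells. Both lines showed separate groups, with rises of 1.53 ± 0.21 in LLC and 1.28 ± 0.21 in colon26 (adjusted p = 0.00134 and 0.00665). Brca2, the partner of PALB2 in recombination, read 9.32 and 8.50 in LLC high cells against 8.10 and 7.71 in LLC low cells, and 8.35 and 7.44 in colon26 high cells against 7.54 and 6.37 in colon26 low cells. The colon26 groups overlapped across numbers although each pair was higher in high cells, and the rises were 1.003 ± 0.19 in LLC and 0.94 ± 0.19 in colon26 (adjusted p = 0.00809 and 0.0211). Brip1, a helicase that binds BRCA1 and is also a Fanconi gene, read 6.80 and 6.59 in LLC high cells against 5.36 and 5.02 in LLC low cells, and 5.68 and 5.51 in colon26 high cells against 5.02 and 4.93 in colon26 low cells. The groups were separate in both lines; it rose in LLC by 1.51 ± 0.18 (adjusted p = 0.000673), while its colon26 change of 0.62 ± 0.18 did not pass (adjusted p = 0.097). Palb2, the bridge between BRCA1 and BRCA2, read 5.90 and 6.52 in LLC high cells against 5.48 and 5.85 in LLC low cells, and 6.16 and 6.12 in colon26 high cells against 5.97 and 5.58 in colon26 low cells. The groups were separate by narrow steps, and the rise over both lines was 0.45 ± 0.13, close to the threshold (adjusted p = 0.0487). Bard1, the obligate partner of BRCA1 in the ligase, read 3.94 and 3.81 in LLC high cells against 3.48 and 3.74 in LLC low cells, and 5.31 and 5.70 in colon26 high cells against 4.71 and 4.99 in colon26 low cells. All LLC values lay under 4, below the filter, so the rise over both lines of 0.46 ± 0.13 (adjusted p = 0.0447) came with a colon26 change of 0.65 ± 0.19 and an LLC change of 0.27 ± 0.19 between dim signals. The calls of Palb2 and Bard1 were each lost whichever pair was left out.

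Of the 7 recombination mediators and partners tested, Rad51ap1, Rad54l, Rad54b and Rad51c rose over both lines, and Xrcc3, Rad51d and Rad52 did not pass. Rad51ap1, which stimulates strand invasion, read 9.82 and 8.81 in LLC high cells against 8.17 and 7.23 in LLC low cells, and 8.90 and 7.98 in colon26 high cells against 8.01 and 6.005 in colon26 low cells. The colon26 high array numbered 2 lay just below the low array numbered 1, whereas within pairs the high array was always above. It rose by 1.61 ± 0.24 in LLC and 1.44 ± 0.24 in colon26 (adjusted p = 0.00238 and 0.0087), or 3.06-fold and 2.71-fold. Rad54l, a motor protein that acts in strand invasion, read 8.05 and 7.99 in LLC high cells against 6.61 and 6.54 in LLC low cells, and 6.99 and 7.14 in colon26 high cells against 6.35 and 6.24 in colon26 low cells. Its groups were separate in both lines, with rises of 1.45 ± 0.18 in LLC and 0.77 ± 0.18 in colon26 (adjusted p = 0.000902 and 0.0423). Rad54b, a relative of RAD54L, read 7.17 and 5.74 in LLC high cells against 4.84 and 4.08 in LLC low cells, and 5.14 and 4.83 in colon26 high cells against 4.63 and 4.04 in colon26 low cells. All 4 low arrays lay under the filter, and the gene entered the test through its high arrays. With LLC low cells set to the filter value, LLC high cells had at least 2.73-fold more signal; the fit called the LLC rise (adjusted p = 0.000431), while the colon26 values stayed near or under 5 and their change did not pass (adjusted p = 0.137). Rad51c, a subunit of the mediator complexes, read 7.45 and 7.27 in LLC high cells against 6.88 and 6.49 in LLC low cells, and 7.74 and 7.63 in colon26 high cells against 7.54 and 6.70 in colon26 low cells. Both lines showed separate groups, and the rise of 0.62 ± 0.15 passed over both lines only (adjusted p = 0.0226). Xrcc3, which pairs with RAD51C, read 4.73 and 5.59 in LLC high cells against 4.32 and 4.65 in LLC low cells, and 4.67 and 5.11 in colon26 high cells against 4.67 and 5.17 in colon26 low cells. Its LLC groups were separate, the low arrays under the filter, with a change of 0.67 ± 0.19 just short of the threshold (adjusted p = 0.0507), and its colon26 change was -0.03 ± 0.19. The mediator subunit Rad51d and the annealing protein Rad52 had changes of 0.18 ± 0.13 and 0.15 ± 0.16 over both lines (adjusted p = 0.44 and 0.619).

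**Figure D2:**
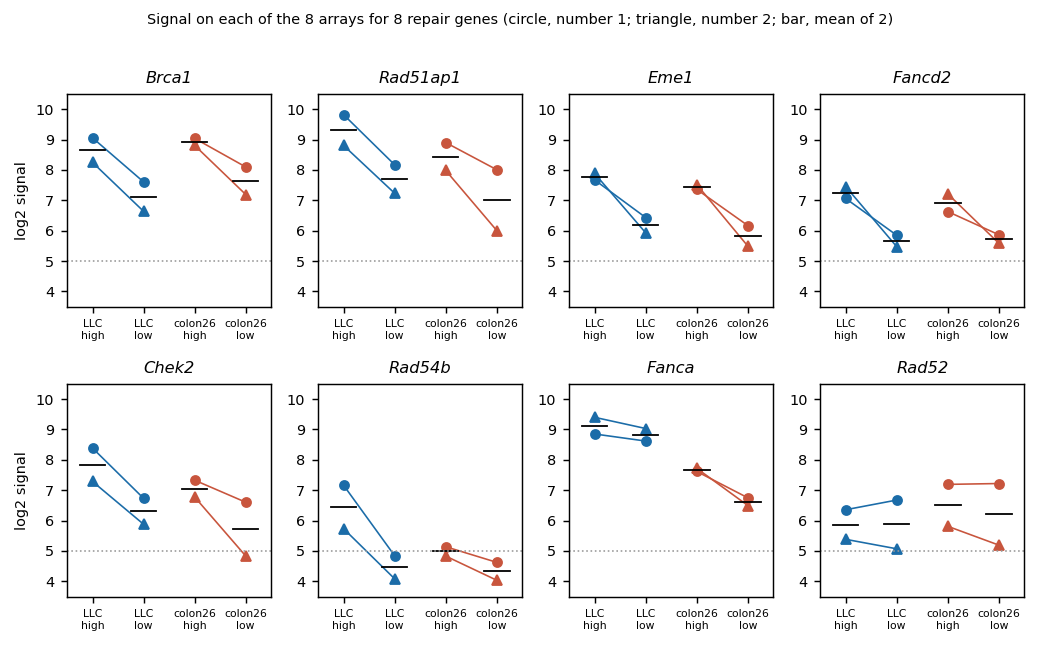
Signal (y axis, log2) on each array for 8 members, with high left of low within LLC (blue) and colon26 (red); lines join arrays of the same number, black bars are means of 2 arrays, and the dotted line is the filter at 5. Brca1, Rad51ap1, Eme1, Fancd2 and Chek2 rose in both lines, Rad54b in LLC and Fanca in colon26, while Rad52 did not pass in either.

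Of the genes that process joint molecules, Eme1 and Blm rose in both lines and Mus81 and Rmi1 did not pass. Eme1, the regulatory subunit of the structure-selective nuclease it forms with MUS81, read 7.67 and 7.88 in LLC high cells against 6.43 and 5.93 in LLC low cells, and 7.36 and 7.52 in colon26 high cells against 6.17 and 5.49 in colon26 low cells. High and low arrays were far apart in both lines, and the rises were nearly equal, 1.60 ± 0.24 in LLC and 1.61 ± 0.24 in colon26 (adjusted p = 0.00256 and 0.005), or 3.02-fold and 3.05-fold. Blm, the RecQ helicase that dissolves paired junctions, read 8.38 and 7.46 in LLC high cells against 7.20 and 6.37 in LLC low cells, and 8.46 and 8.13 in colon26 high cells against 7.54 and 6.43 in colon26 low cells. It rose by 1.14 ± 0.21 in LLC and 1.31 ± 0.21 in colon26 (adjusted p = 0.00746 and 0.00686), with separate groups in both. The catalytic subunit Mus81 had a change of 0.21 ± 0.12 over both lines and Rmi1, which works with BLM, one of 0.18 ± 0.13 (adjusted p = 0.334 and 0.423). Whether the members of such a pair differ from each other was not tested.

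Of the 8 genes of the Fanconi core complex and its anchor, Fancb, Fanca, Fancl, Fancg and Fancm rose over both lines. Fancb, part of the catalytic module, read 8.14 and 7.04 in LLC high cells against 6.53 and 5.41 in LLC low cells, and 7.32 and 6.15 in colon26 high cells against 6.42 and 5.11 in colon26 low cells. Within pairs the high array was always well above, and the rises were 1.62 ± 0.18 in LLC and 0.97 ± 0.18 in colon26 (adjusted p = 0.000529 and 0.012). Fancl, the ubiquitin ligase of that module, read 8.40 and 8.09 in LLC high cells against 7.78 and 7.50 in LLC low cells, and 9.04 and 8.88 in colon26 high cells against 8.70 and 7.93 in colon26 low cells. Its groups were separate in both lines, and it rose over both by 0.63 ± 0.14 (adjusted p = 0.0155), short of the threshold in each (adjusted p = 0.0827 in LLC and 0.123 in colon26). Fanca, a subunit of the arm that includes FANCG, read 8.85 and 9.40 in LLC high cells against 8.62 and 9.03 in LLC low cells, and 7.62 and 7.72 in colon26 high cells against 6.75 and 6.50 in colon26 low cells. It rose in colon26 by 1.05 ± 0.18 (adjusted p = 0.0105), where the groups were separate, and its LLC change of 0.30 ± 0.18 did not pass (adjusted p = 0.356). Fancg read 6.49 and 6.35 in LLC high cells against 5.77 and 5.39 in LLC low cells, and 5.07 and 5.31 in colon26 high cells against 4.99 and 4.69 in colon26 low cells. High arrays lay above low arrays in both lines. The call was the reverse of that of Fanca: it rose in LLC by 0.84 ± 0.20 (adjusted p = 0.0226), with a colon26 change of 0.35 ± 0.20 (adjusted p = 0.408) from low arrays under the filter. Fancm, the translocase that anchors the core complex on DNA, read 7.96 and 7.09 in LLC high cells against 7.43 and 6.67 in LLC low cells, and 6.99 and 6.62 in colon26 high cells against 6.59 and 5.78 in colon26 low cells. The groups overlapped in LLC and were separate in colon26, and it passed over both lines, rising by 0.55 ± 0.13 (adjusted p = 0.0228), and in neither alone. Fancf, an adaptor between the arms of the complex, read 8.26 and 7.82 in LLC high cells against 7.99 and 7.56 in LLC low cells, and 9.27 and 8.86 in colon26 high cells against 9.17 and 8.05 in colon26 low cells. The groups overlapped in both lines, and the change over both was 0.36 ± 0.15 (adjusted p = 0.145). Fance and Fancc, which sit together in the complex, had changes of 0.29 ± 0.13 and -0.01 ± 0.13 over both lines (adjusted p = 0.193 and 0.98). Fancc was the 1 member higher in the high cells of both LLC pairs and lower in those of both colon26 pairs, with changes of 0.21 ± 0.18 in LLC and -0.23 ± 0.18 in colon26, and this difference did not pass (0.44 ± 0.26, adjusted p = 0.467).

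The substrates of the core complex both rose in LLC. Fancd2 read 7.06 and 7.45 in LLC high cells against 5.85 and 5.47 in LLC low cells, and 6.63 and 7.21 in colon26 high cells against 5.87 and 5.58 in colon26 low cells. The groups were separate in both lines, with rises of 1.60 ± 0.25 in LLC and 1.20 ± 0.25 in colon26 (adjusted p = 0.00288 and 0.0258). Fanci, its partner in the clamp, read 7.07 and 6.83 in LLC high cells against 5.71 and 5.80 in LLC low cells, and 6.71 and 6.60 in colon26 high cells against 6.39 and 6.36 in colon26 low cells. The LLC rise was 1.19 ± 0.18 (adjusted p = 0.00256). In colon26 the high arrays were above the low arrays by a smaller step, 0.28 ± 0.18, which did not pass (adjusted p = 0.464).

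Among the checkpoint genes, the effector kinases and the activator of ATR rose in both lines, and the apical kinases Atr and Atm passed in neither. Chek1, the effector kinase of ATR, read 10.10 and 8.76 in LLC high cells against 8.94 and 7.71 in LLC low cells, and 8.42 and 7.10 in colon26 high cells against 7.63 and 5.45 in colon26 low cells. Arrays of different numbers overlapped in both lines, while each pair was clearly higher in high cells, with rises of 1.10 ± 0.22 in LLC and 1.22 ± 0.22 in colon26 (adjusted p = 0.0103 and 0.0121). Chek2, the effector kinase of ATM, read 8.39 and 7.29 in LLC high cells against 6.73 and 5.88 in LLC low cells, and 7.33 and 6.78 in colon26 high cells against 6.61 and 4.83 in colon26 low cells. Its groups were separate, and it rose by 1.53 ± 0.26 in LLC and 1.33 ± 0.26 in colon26 (adjusted p = 0.00444 and 0.0176). Topbp1, which activates ATR, read 11.13 and 10.72 in LLC high cells against 10.44 and 9.89 in LLC low cells, and 10.57 and 10.22 in colon26 high cells against 10.03 and 9.12 in colon26 low cells. It rose by 0.76 ± 0.20 in LLC and 0.82 ± 0.20 in colon26, close to the threshold in colon26 (adjusted p = 0.0336 and 0.0491), with separate groups in both. Atr, the kinase of stalled forks, read 8.99 and 7.97 in LLC high cells against 8.90 and 7.76 in LLC low cells, and 8.77 and 7.88 in colon26 high cells against 8.35 and 6.71 in colon26 low cells. High and low values overlapped in both lines, and the changes were 0.15 ± 0.21 in LLC and 0.79 ± 0.21 in colon26 (adjusted p = 0.73 and 0.0775). Atm, the kinase of double-strand breaks, read 8.64 and 8.04 in LLC high cells against 8.59 and 7.94 in LLC low cells, and 8.46 and 6.38 in colon26 high cells against 8.29 and 5.21 in colon26 low cells. In LLC the pairs differed by at most 0.10, and in colon26 the arrays numbered 1 and 2 lay far apart in both groups; the change over both lines was 0.37 ± 0.17 (adjusted p = 0.175). Rad18, a ubiquitin ligase that marks the sliding clamp at damaged forks, read 8.12 and 8.67 in LLC high cells against 6.89 and 7.13 in LLC low cells, and 8.32 and 7.06 in colon26 high cells against 7.53 and 5.39 in colon26 low cells. It rose by 1.39 ± 0.23 in LLC and 1.23 ± 0.23 in colon26 (adjusted p = 0.00355 and 0.013), with overlap between numbers in colon26 only.

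The changes of the members in LLC were set against those in colon26. None of the 36 differed between the lines at the threshold (the change was larger in LLC for 0.427% of all genes and smaller for 0.985%), and the smallest adjusted p was 0.0618, for Rad54b. At an unadjusted p under 0.05 there were 7 members, which are named here on that ground after their values were seen. The share of all genes at that unadjusted p was not counted, so the 7 cannot be set against it. For Rad54b both changes start from low arrays under the filter, so the fitted difference has no interpretable size. The LLC change exceeded the colon26 change by 0.91 ± 0.26 for Fanci (adjusted p = 0.149) and by 0.88 ± 0.25 for Brip1 (adjusted p = 0.148). The same difference was 0.70 ± 0.27 for Xrcc3 (its LLC low arrays under the filter), 0.68 ± 0.25 for Rad54l and 0.65 ± 0.25 for Fancb, with adjusted p between 0.272 and 0.29. Fanca went the other way, with a difference of -0.74 ± 0.26 (adjusted p = 0.242). Across the 36 members, the LLC and colon26 changes had a Pearson correlation of 0.64 and a Spearman correlation of 0.59, against 0.48 and 0.32 across all genes; genes are not independent replicates, and these are descriptions. Rad54b passed the threshold of the difference in 3 of the alternatives, median centring, trend with robust moderation and the fit without LLC pair 2 (adjusted p = 0.0223, 0.034 and 0.0486), with the same limit of dim low arrays.

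**Figure D3:**
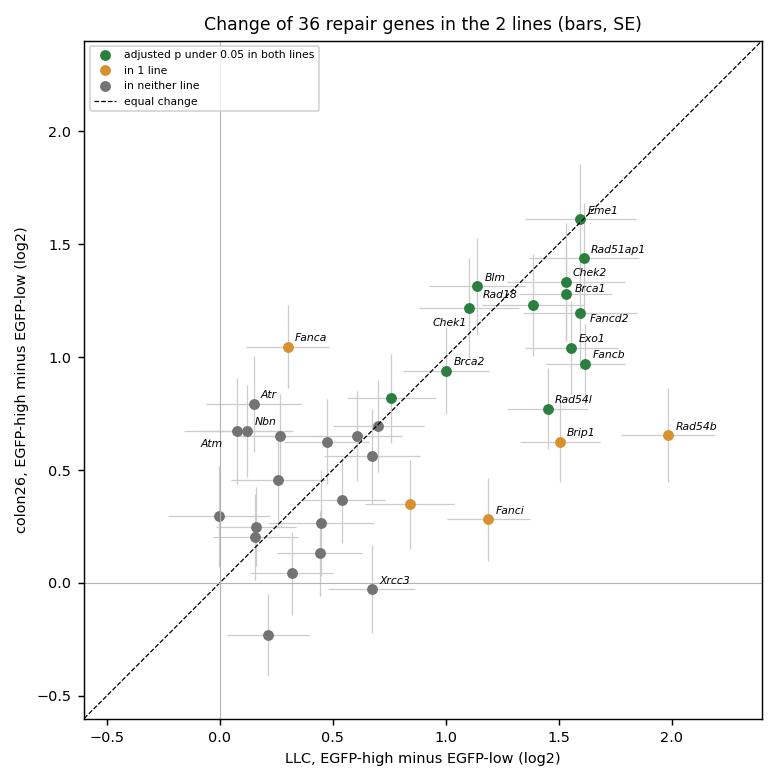
Change (high minus low, log2, bars SE) of the 36 members in LLC (x axis) and colon26 (y axis), coloured by the number of lines in which the member was called. The 13 members called in both lines lie in the upper right, Rad54b, Brip1 and Fanci below the dashed line of equal change, and Fanca above it.

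The level of the members also differed between the lines, averaged over high and low cells. Higher in LLC were 16 of the 36 (44.4%), against 25.5% of all genes, and 7 were lower (19.4%), against 33.1%. Tumour age, 4 weeks in LLC and 2 in colon26, and the line cannot be told apart here. The fit of this comparison removed only the difference between numbers that the lines share. It took the high and the low array of a pair as independent, so its p-values can be too small. Fanca stood furthest toward LLC, with 9.13 ± 0.39 in LLC high, 8.83 ± 0.29 in LLC low, against 7.67 ± 0.07 in colon26 high and 6.62 ± 0.18 in colon26 low cells (SD, n = 2 each), a difference of 1.83 ± 0.16 (adjusted p = 2.97e-05). Its LLC low arrays lay above both colon26 high arrays. Chek1 followed, with 9.43 ± 0.95 in LLC high, 8.32 ± 0.87 in LLC low, against 7.76 ± 0.94 in colon26 high and 6.54 ± 1.54 in colon26 low cells, and differed by 1.72 ± 0.18 (adjusted p = 8.47e-05). Bard1 was called toward colon26 and Rad54b toward LLC, with no size given, since all LLC arrays of Bard1 and the low arrays of both lines for Rad54b lay under the filter. Of the other members lower in LLC, Fancf had 8.04 ± 0.31 in LLC high, 7.78 ± 0.31 in LLC low, against 9.07 ± 0.29 in colon26 high and 8.61 ± 0.79 in colon26 low cells, a difference of -0.93 ± 0.15 (adjusted p = 0.00119). Mus81 followed, with a difference of -0.71 ± 0.16 (adjusted p = 0.00589). Without the number as a block, 4 members were higher and 1 lower in LLC, and without LLC replicate 2, 8 were higher.

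Of the 37 members on the array 28 are measured by several probe sets, 88 in all, which sample different stretches of the transcript. Beside the 36 used here, 35 other probe sets of 23 members passed the filter, and 31 of them had the same sign over both lines (30 in LLC and 32 in colon26). The 4 that differed belonged to Atr, Fancf, Rad51d and Rad52, none of them a called member. The 3 probe sets of Brca1 that passed the filter changed by 1.40, 1.36 and 1.44 over both lines (the fourth, under 5 on all arrays, by 0.15), while the arrays numbered 1 differed from those numbered 2 by 0.73, -1.47 and -1.74. Sizes agreed less in some other called members. Another probe set that passed changed by 0.23 against 0.79 in the one used for Topbp1, and by 0.08 against 0.55 for Fancm. For Rad51ap1 another changed by more, 1.81 against 1.52. Sizes were not compared over all probe sets. A probe set of Rad18 was 2.99 higher on arrays numbered 1, and its change with the sort was 0.56. The median absolute difference between numbers was 0.64 for the members and 0.41 for all genes, and 26 of the 36 members were higher on arrays numbered 1. It ran from -1.72 for Fance to 1.60 for Atm.

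**Figure D4:**
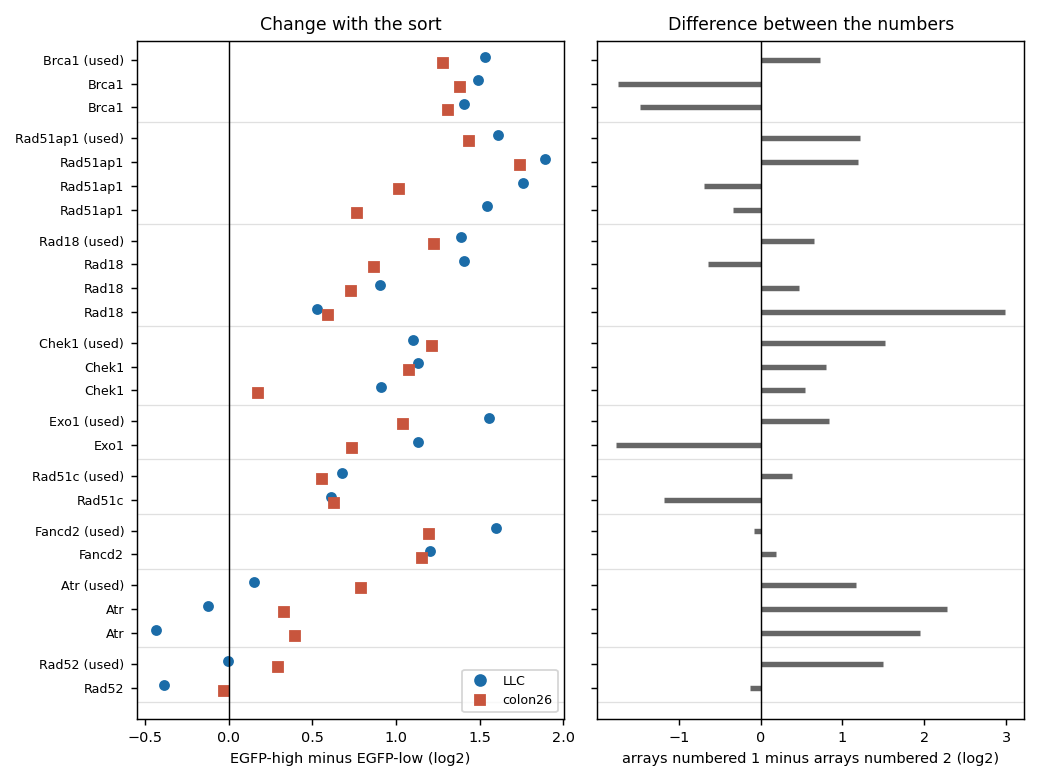
Probe sets that passed the filter for 9 members, with the high minus low change in LLC (circles) and colon26 (squares) on the left and the difference between arrays numbered 1 and 2 on the right (log2); the probe set used is marked. The sign of the left panel is shared within Brca1, Rad51ap1, Rad18, Chek1, Exo1, Rad51c and Fancd2, while the right panel turns sign within Brca1, Rad51ap1, Rad18, Exo1, Rad51c, Fancd2 and Rad52.

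Other genes of the same pathways were read from lists drawn up beside the member list. Of all genes tested, 7.47% rose over both lines, 4.98% in LLC and 2.18% in colon26. Of 30 further homologous recombination genes tested, 12 rose over both lines, 8 in LLC and 8 in colon26, with a median change over both of 0.35 and none lower. Gen1, a nuclease that cuts Holliday junctions, rose by 1.54 ± 0.15 over both lines (adjusted p = 0.000122). Fignl1, an ATPase that acts in recombination, rose by 1.26 ± 0.14, and the helicase Mcm8 by 1.18 ± 0.12. Of 12 further Fanconi genes, 6 rose over both lines, with a median of 0.43. Ube2t, the conjugating enzyme that serves FANCL, rose by 1.95 ± 0.19 (adjusted p = 0.000138), and Usp1, which removes ubiquitin from FANCD2 again, by 0.93 ± 0.16. Uhrf1, a sensor of crosslinks and of hemimethylated DNA, rose by 1.14 ± 0.17. Of 15 further checkpoint genes 10 rose, with a median of 0.58, among them Clspn, the mediator that brings CHEK1 to ATR (1.16 ± 0.15), Wee1, the kinase that restrains mitosis (0.89 ± 0.14), and Rhno1, a partner of the checkpoint clamp (0.74 ± 0.14). Of 13 genes of chromatin signalling at breaks 4 rose, with a median of 0.35; H2ax, the histone variant phosphorylated at breaks, rose by 1.29 ± 0.14, while Paxip1 and Mdc1, which bind the marked chromatin, rose by 0.57 ± 0.13 and 0.51 ± 0.14.

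Genes of the cell cycle phases in which these pathways act moved with them. Of 18 S phase genes tested, 16 rose over both lines, 14 in LLC and 10 in colon26, and the median change over both was 0.65 for the 36 members, against 1.09 for the S phase genes and 0.04 for all genes. Tk1 (thymidine kinase) rose by 1.57 ± 0.17, Ccna2 (cyclin A) by 1.57 ± 0.17, and Pole (the leading strand polymerase) by 1.29 ± 0.14. All 19 G2 and mitosis genes tested rose over both lines, with a median of 1.88, and Kif11 (the spindle motor) rose by 2.06 ± 0.17. The part of cell cycle phase in the change of the repair genes was not tested.

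**Figure D5:**
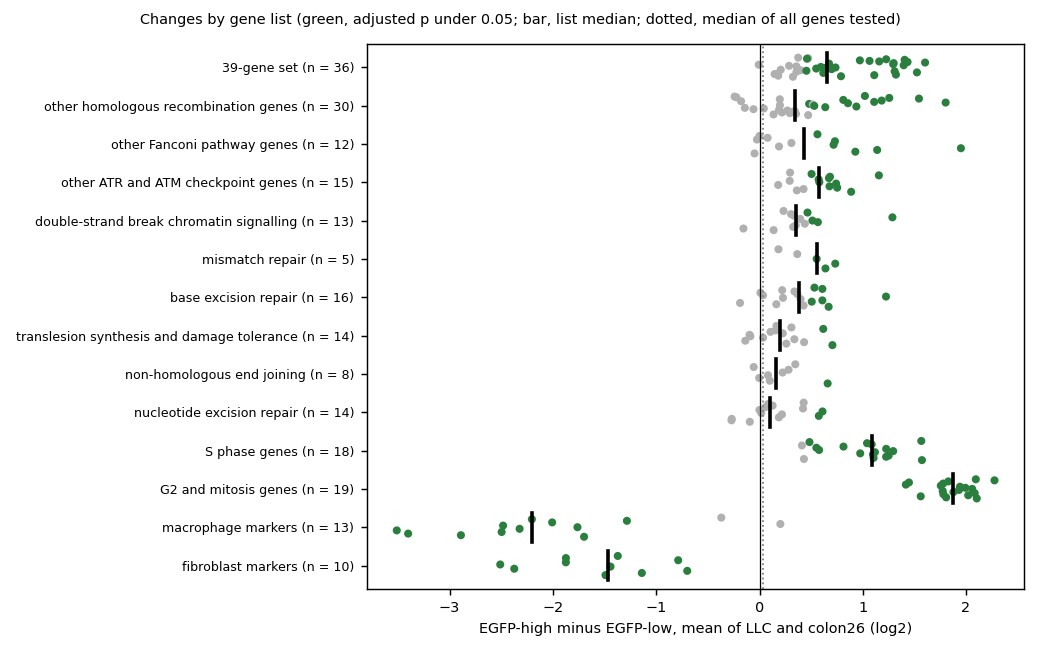
Change over both lines (x axis, high minus low, log2) of each tested gene in the 39-member set and in other lists; green points were called, black bars are list medians, and the dotted line is the median of all genes tested. The members' median is 0.65, between those of the further recombination genes (0.35) and of the S phase genes (1.09), and the medians of the macrophage markers (-2.20) and the fibroblast markers (-1.47) lie left of 0.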

How the data were processed

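Total RNA of the sorted cells was labelled with biotin and hybridised to 1-colour arrays, per the labels. The deposited values are log2 signals of 45101 probe sets, made by the authors with RMA, per the submitters' processing notes; neither its version nor the set of arrays it was run on is given in the sources used here. Of the probe sets, 34945 carry 1 gene symbol, 932 several, 9160 none, and 64 are controls; only the first were used, 1 per gene. The members, gene lists, tests and alternatives were chosen with earlier results of these data known. Changes were fitted over 12177 genes with limma 3.58.1 in R 4.3.3 (4 pairs as blocks; 2 residual degrees of freedom, prior 8.25) and the line difference with the number as block (3 and 5.16), with Benjamini-Hochberg adjustment at 0.05. The pairing comes from the replicate numbers: same-numbered high and low arrays shared their deviations from the group means (r = 0.89 in LLC, 0.84 in colon26, across genes). Same-numbered arrays of different lines did so too (r = 0.84 for high and 0.74 for low arrays). These values therefore do not set a pairing within a line apart from a difference between numbers common to both lines. The labels call the arrays of a group biological replicates and do not say whether they came from separate mice. The p-values of the high minus low changes rest on how far the differences of the pairs of a line disagree. This spread was pooled over the lines and moderated over all genes. Those of the line difference rest on the spread left between arrays once group and number are fitted. Neither is known to measure the spread between mice. The fitting code was tested on simulated data. Per-array values are given for members called in LLC, in colon26 or over both lines and for the 6 uncalled members with the largest change; of each other list, up to 3 called genes by smallest p. Promoter windows came from RefSeq. Plots used Python 3.11.15 with matplotlib 3.10.9. The number of arrays, 2 a group, limits the precision.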

Additional observations from a re-analysis of the deposited data

How the results depend on the processing

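The replicate block decided the calls: without it (4 residual degrees of freedom, prior 2.34) 0 members were called for LLC, 0 for colon26 and 0 over both lines, and 4 were higher and 1 lower in LLC than in colon26. With a block shared by the lines 6 members were called in colon26, with quantile normalization 4, and with a gene's probe sets averaged 8, against 14. Over both lines, the arrays numbered 1 alone called 0 members and those numbered 2 alone 12. Median centring, and trend with robust moderation, each called 1 member, Rad54b, in the difference between lines. When pairs were left out in turn, 11 to 18 members were called for LLC, 0 to 13 for colon26, 12 to 25 for both together and 0 to 1 in the difference, and 8 to 17 were higher and 5 to 7 lower in LLC than in colon26; the lowest counts came without LLC 1, colon26 2, colon26 2 and, for the line difference, LLC 2. The filter of 7, no filter, and the arrays of a line alone kept each count of higher members within 1.5 times. No member was called lower in any high minus low comparison under any of these settings. Of 492 member values in LLC under all alternatives, 443 kept direction and side of the threshold and 4 reversed; of 492 in colon26 these were 407 and 8, and of 528 over both lines 419 and 7. The reversals were of uncalled members, whose changes in the main fit reached 0.30 (Rad52 in colon26). Quantile normalization gave Rad52 0.0187 in LLC, and Xrcc3 0.0495 and Rmi1 -0.13 in colon26. Median centring gave Rad52 0.0051 in LLC, Xrcc3 0.0542 in colon26 and Fancc 0.037 over both lines. The mean of probe sets gave Atr -0.14 in LLC and Rad52 -0.0292 over both lines, and arrays numbered 1 alone gave Rad52 -0.17. With each pair left out in turn, Rad52 ran from -0.32 to 0.31 in LLC, from -0.0281 to 0.62 in colon26 and from -0.0157 to 0.31 over both lines, and Fancc from -0.0691 to 0.0537 over both lines. In colon26, Rmi1 then ran from -0.0634 to 0.15, Rad50 from -0.15 to 0.68, Rad51d from -0.0266 to 0.43 and Xrcc3 from -0.0555 to 0.0019. The causes were not tested. The median change of all genes in colon26 was 0.17 after median centring and 0.08 as deposited. With RMA values and 2 arrays a group, members near the filter, such as Bard1 and Rad54b, are measured with little signal over background.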

Other observations

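Some genes of other repair pathways rose, where 7.47% of all genes tested rose over both lines. Of 8 genes of non-homologous end joining tested, Xrcc6 (the Ku70 subunit of the end-binding Ku dimer) rose over both lines, by 0.66 ± 0.13 (adjusted p = 0.0087), and the median was 0.16. Of 14 nucleotide excision repair genes 2 rose, Ercc8, the transcription-coupled repair factor (0.61 ± 0.13), and Gtf2h4, a TFIIH subunit (0.57 ± 0.17), with a median of 0.10. Of 14 genes of translesion synthesis and damage tolerance 2 rose, the polymerase gene Polh (0.62 ± 0.15) and the fork remodeller Zranb3 (0.71 ± 0.18), with a median of 0.19. Of 16 base excision repair genes 6 rose, with a median of 0.38; the glycosylase Neil3 rose by 1.22 ± 0.14 (adjusted p = 0.000318), Xrcc1, the scaffold of single-strand break repair, by 0.67 ± 0.12, and the nuclease Apex2 by 0.61 ± 0.14. Of 5 mismatch repair genes 3 rose: Pms1 by 0.73 ± 0.13, Pms2 by 0.64 ± 0.14 and Msh6 by 0.55 ± 0.15, with a median of 0.55. None of these genes fell, where 5.57% of all genes tested fell over both lines. With so few genes called, the lists of end joining, nucleotide excision repair and translesion synthesis cannot be set apart from the share of all genes that rose. Differences between these lists were not tested.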
